A study of Mus musculus with 4 samples.

Results

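The genes that mark undifferentiated spermatogonia were examined as sources of MILI-bound small RNAs in the juvenile mouse testis. They were Lin28a, Zbtb16, Sall4, Trim71, Gfra1, Id4, Nanos2, Nanos3, Etv5 and Bcl6b. A sequence was assigned to a gene when it was identical, in sense or in antisense, to a stretch of a GENCODE M21 transcript of that gene and of no other gene. Of the 4906138 distinct sequences in the list, 5614 met this rule, which is 0.114% of the list, and each of the 10 genes held at least 17 of them. The study immunoprecipitated MILI (Piwil2) from testis lysates of C57BL/6 mice at 14 dpp (days post partum), with 2 libraries from Tdrd9-/- mice and 2 from Tdrd9+/- mice. Tdrd9 encodes a helicase of the piRNA pathway. The list pools the 4 libraries without read counts and without library names, so the genotypes could not be compared, depth is unknown, and no error between replicates could be computed. Intervals given here are exact 95% intervals and cover counting error over distinct sequences only.

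Undifferentiated spermatogonia are the germ cells that include the stem cells of the testis. They depend on the growth factor GDNF, which Sertoli cells make and which acts through the co-receptor GFRA1 and the receptor RET. They keep differentiation in check with RNA-binding proteins (NANOS2, NANOS3, LIN28A, TRIM71) and with transcriptional regulators (PLZF, encoded by Zbtb16; SALL4; ID4; ETV5; BCL6B). MILI is a PIWI protein of these and later germ cells. It carries piRNAs, which silence transposons, and it also carries fragments of messenger RNAs. Primary piRNAs usually begin with U, which the list writes as T.

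The fragments themselves are shown for each gene as the longest sequence of up to 30 nt at the 5′ end that held the most distinct sequences, or the most 5′ of such ends where several tied. The capital marks the first base, the position at which most piRNAs carry U. The regulators of RNA come first, followed by the receptor and the transcriptional regulators.
Trim71: Tagaacaggacaacccaggaggcctcaccc
Lin28a: Gacttgatctggatttggcaaaacatagg
Nanos2: Tgccagacctttgtaacttcagactgcct
Nanos3: Tggacacaggcatgctggagactggacct
Gfra1: Tatgaagaacgagagaggcccaactgcct
Zbtb16: Tgaacttgacctggtagaggccctcccctt
Sall4: Tgtgactctgcaggcgctccgcggcaccaa
Id4: Tgatttttcttgtcttttgcttcgggc
Etv5: Tgaactatgacaagctgagccgctctctcc
Bcl6b: Tgagatgttagatgctgcaagatcagatt
All but that of Lin28a began with T. In mm9, the Trim71 sequence lay on the minus strand of chromosome 9 at 114419738 to 114419767 in the 3′ UTR, and its 5′ end held 9 distinct sequences of 23 to 31 nt. The Lin28a sequence lay on the minus strand of chromosome 4 at 133560995 to 133561023 in the 3′ UTR, with 7 sequences at its end. The Sall4 sequence lay on the minus strand of chromosome 2 at 168581865 to 168581894 in coding sequence, with 8 sequences at its end. The Etv5 end, in coding sequence on the minus strand of chromosome 16 at 22386862 to 22386891, held 6 of the gene's 44 sequences. The Zbtb16 sequence lay in the 3′ UTR on the minus strand of chromosome 9 at 48463769 to 48463798, with 6 sequences at its end. Those of Nanos2 (chromosome 7, plus strand, 19573948 to 19573976), Nanos3 (chromosome 8, minus strand, 86697730 to 86697758) and Bcl6b (chromosome 11, minus strand, 70037659 to 70037687) also lay in 3′ UTRs, with 3, 5 and 3 sequences at their ends. That of Gfra1, on the minus strand of chromosome 19 at 58374771 to 58374799, lay in coding sequence, with 5 sequences at its end. In Id4 each of the 16 ends held a single sequence, and the one shown is the most 5′ of them, on the plus strand of chromosome 13 at 48356622 to 48356648.

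Trim71 and Lin28a held the most fragments of the group, and Id4 and Nanos2 the fewest in sense. Sense sequences numbered 5500 in the 10 genes together, and Trim71 alone held 3122 of them (56.8%). The others held 794 (Lin28a), 590 (Zbtb16), 548 (Sall4), 211 (Gfra1), 88 (Bcl6b), 72 (Nanos3), 44 (Etv5), 16 (Id4) and 15 (Nanos2). All 10 genes had 10 or more sense sequences, whereas 55% of the 22445 protein-coding genes did. A count of 100 or more was reached by 5 of the 10, against 24.4% of protein-coding genes. The 10 genes held 0.247% of the sequences in sense to protein-coding genes on 0.0552% of the summed transcript length. As whole testes were lysed, fewer cells of a type and less RNA per cell cannot be told apart in any of these values.

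To compare genes of different length, distinct 5′ ends were counted and divided by the length of the longest transcript. Trim71, which encodes an RNA-binding ubiquitin ligase and is a known target of the microRNA let-7, had 164 sense ends per kb (156–173) and ranked 61 of 22445. Lin28a, whose protein blocks the maturation of let-7, had 120.1 ends per kb (109–132) and ranked 201. Neither interval overlapped another gene's. Zbtb16 followed with 70.6 (63.5–78.3), Nanos3 with 64.4 (47.3–85.6) and Sall4 with 62.9 (56.2–70.2), and these 3 intervals overlapped each other. Gfra1 had 30.8 (25.97–36.3) and Bcl6b 20.8 (16.2–26.3), with intervals that met at their edges.

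The lowest densities belonged to Nanos2 with 8.32 ends per kb (4.43–14.2), Etv5 with 7.55 (5.09–10.8) and Id4 with 4.16 (2.38–6.75), whose intervals also overlapped. The median of the 10 genes was 46.8 ends per kb and that of all protein-coding genes 5.18, with 6493 protein-coding genes at 0. Without Trim71 the median was 30.8. Id4, an inhibitor of bHLH factors that marks a stem-cell fraction, ranked 11746, and its interval held the median of all protein-coding genes, as did those of Nanos2 and Etv5. Etv5 and Bcl6b are both genes that GDNF induces in cultured spermatogonia, and their intervals did not overlap.

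**Figure D1:**
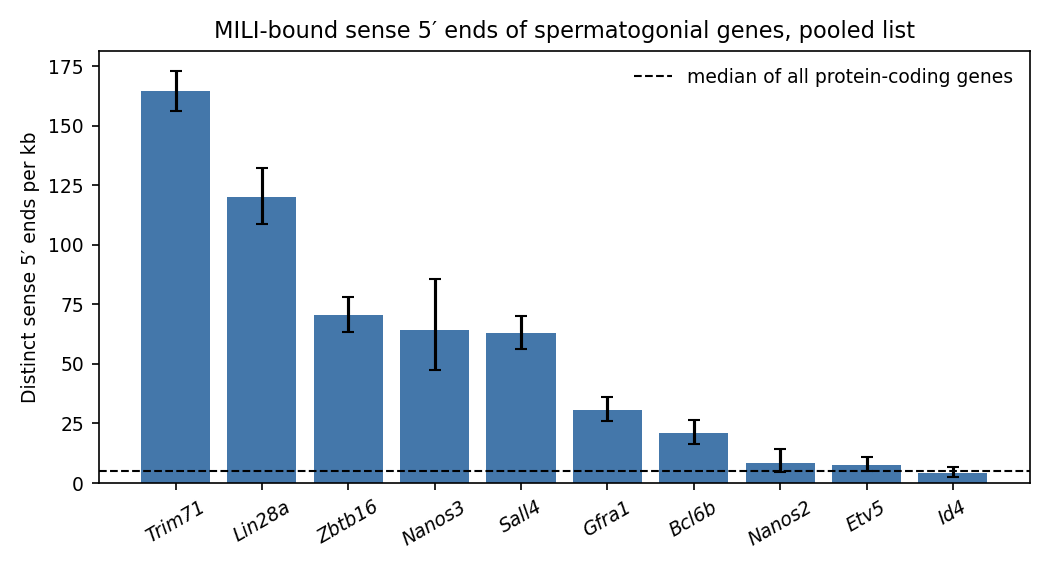
Distinct sense 5′ ends per kb for each of the 10 genes in the pooled list; bars show the value, error bars the exact 95% Poisson interval, and the dashed line the median of all protein-coding genes (5.18). Trim71 (164) and Lin28a (120.1) stand above the rest, and the interval of Id4 (2.38 to 6.75) spans the dashed line.

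The rule sets aside sequences that a second gene could also have given, and this mattered most for Nanos2. Nanos2, an RNA-binding protein that recruits the CCR4-NOT deadenylase, overlaps the annotated antisense gene Gm45058. With the 62 shared sequences kept, Nanos2 had 40 sense and 67 antisense sequences and 19.8 sense ends per kb, against 8.32 by the rule. For Sall4, 36 sequences were shared with Gm14261 on the opposite strand, and keeping them gave 66.2 ends per kb. For Gfra1, 23 were shared with the antisense gene Gm16277, which gave 34.04 ends per kb. Etv5 shared 7 sequences with the processed pseudogene Gm4798, and all 7 were listed on chromosome 10, where the pseudogene lies, not on chromosome 16, where Etv5 lies. The remaining genes shared 26 (Trim71), 3 (Lin28a) or 0 sequences.

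The fragments came mostly from the strand of the messenger RNA, as they did over all protein-coding genes. Of the 5614 sequences, 5500 were sense (97.97%, 97.6–98.3%), and all of these lay on the chromosome and strand of their gene. The sense share over all protein-coding genes was 95.3%. Antisense sequences numbered 45 for Trim71, 30 for Nanos2, 12 for Lin28a and 11 for Gfra1, with 5 or fewer for each other gene and 0 for Etv5. Nanos2 was the exception, with 15 sense and 30 antisense sequences, a sense share of 33.3% (20.001–48.95%). One gene of 10 thus had more antisense than sense sequences, and 9.12% of the 16637 protein-coding genes with a sequence did. All 19 antisense ends of Nanos2 that the rule kept fell in the 3′ UTR, between nt 987 and 1548 of the transcript. The rule could keep few from nt 166 to 993, where 91.5% of the 27-nt words also occur in another gene. It set aside 37 antisense sequences shared with Gm45058, so the kept ends do not show where antisense sequences lay along the whole transcript. In Trim71, 29 of the 34 antisense ends fell in the 5′ UTR and 33 in exon 1.

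The fragments of the 10 genes were close in length to the MILI-bound list as a whole. Their sense sequences averaged 26.97 nt (SD 1.49 nt) with a mode of 27 nt, and the whole list averaged 27.1 nt (SD 1.31 nt). Those of 26 to 28 nt made up 72.8% (71.6–74.0%) in the 10 genes and 77.0% in the whole list. The share was 70.5% (68.9–72.1%) in Trim71, 74.3% in Lin28a, 77.1% in Zbtb16 and 74.5% in Sall4. The libraries were cut from a gel at roughly 28 to 30 nt, so these lengths also carry that selection.

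Within the transcripts, Trim71 and Sall4 were opposite in where the ends lay. In Trim71 the 3′ UTR had 215 ends per kb, the coding sequence 85.7 and the 5′ UTR 102, a ratio of 3′ UTR to coding sequence of 2.51 (2.17–2.91). In Sall4, a zinc-finger factor that works with the NuRD corepressor, the coding sequence had 79.6 ends per kb and the 3′ UTR 33, a ratio of 0.415 (0.305–0.556). Zbtb16 (1.54, 1.22–1.95) and Bcl6b (1.94, 1.119–3.48) also lay above 1, but both intervals held the 1.31 of all protein-coding genes. Nanos3 lay above 1 as well, with 21 ends on 172 nt of 3′ UTR and 24 ends on 537 nt of coding sequence (2.73, 1.45–5.12). The ratio was 1.16 (0.887–1.52) in Lin28a and 1.499 (0.995–2.31) in Gfra1, and both intervals held 1. Etv5 (0.347, 0.130–0.848) and Id4 (0.157, 0.0420–0.588) lay on the side of Sall4, with 28 and 16 ends in all. Nanos2 had 11 ends in the 3′ UTR, 2 in the 5′ UTR and 0 in coding sequence, where keeping the shared sequences gave 17.

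Pooled over the 10 genes the ratio was 1.60 (1.47–1.75), beside 1.31 over all protein-coding genes. It rested on Trim71, without which it was 0.992 (0.888–1.11). The 3′ UTRs are richer in T (30.0% of positions, against 19.0% in coding sequence). Counting only ends that begin with T, per T position, gave a pooled ratio of 1.10, beside 1.12 over all protein-coding genes. On that scale it was 0.737 without Trim71, 1.67 in Trim71 and 0.343 in Sall4. The ratio per T position was 1.32 in Nanos3, 1.31 in Bcl6b, 1.23 in Zbtb16, 0.968 in Gfra1 and 0.840 in Lin28a. In Etv5 and Id4 it was 0.318 and 0.0858. The A, C and G positions differed more: 4.75% were an end in the 3′ UTRs of the 10 genes and 2.86% in coding sequence. These shares were 13.6% and 5.16% in Trim71, 2.12% and 2.36% without Trim71, and 1.07% and 0.911% over all protein-coding genes. Sall4 had 0 ends of its own in its 5′ UTR of 172 nt, and 14 when the sequences shared with Gm14261 were kept.

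**Figure D2:**
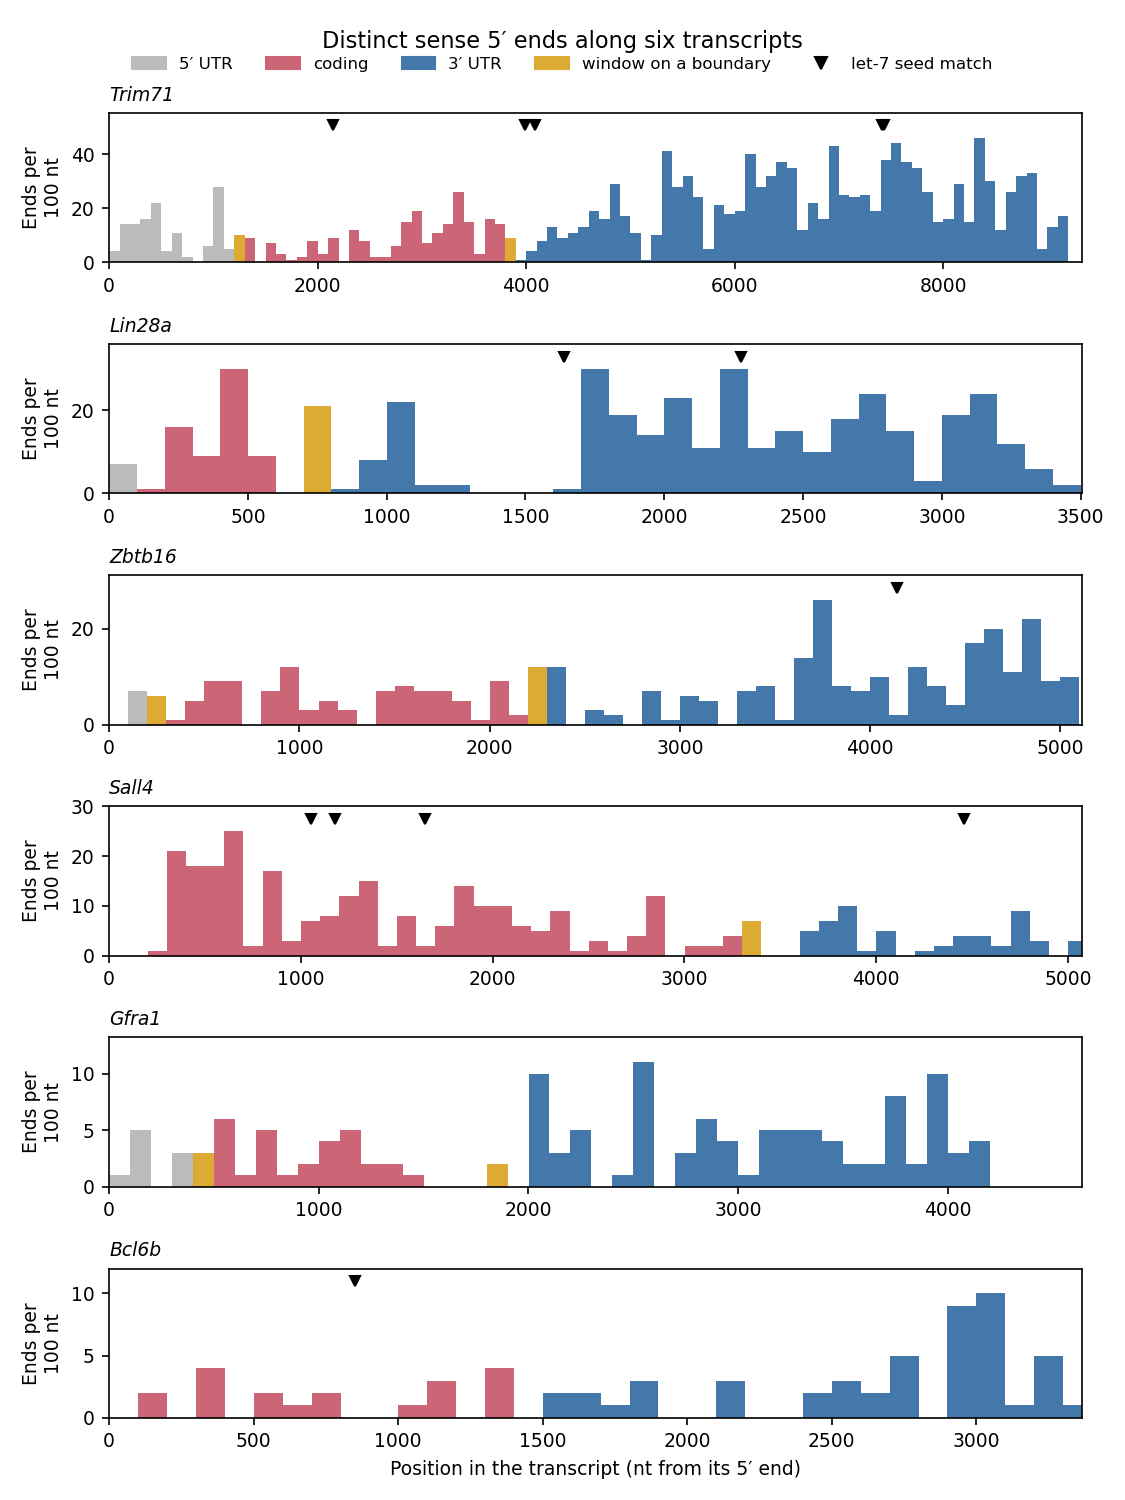
Distinct sense 5′ ends in successive windows of 100 nt along the 6 transcripts with 68 or more ends, from the 5′ end at left; bar colours give the 5′ UTR, coding sequence and 3′ UTR, and triangles mark matches to the let-7 seed. Trim71 reaches 46 ends in a window of its 3′ UTR, whereas the fullest window of Sall4 (25 ends) lies in coding sequence.

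The sense sequences together covered most of the transcripts with the highest densities. At least 1 sense sequence covered 77.3% of the Trim71 transcript, 68.2% of Lin28a, 58.8% of Zbtb16, 53.2% of Sall4, 50.96% of Nanos3 and 41.9% of Gfra1. Coverage was 26.5% in Bcl6b, 15.9% in Nanos2, 12.5% in Etv5 and 6.99% in Id4, and 47.7% over the 10 transcripts together. Keeping sequences shared with another gene raised it to 34.8% in Nanos2, 16.4% in Etv5, 45.5% in Gfra1, 56.2% in Sall4 and 78.5% in Trim71. The fullest window of 100 nt held 46 ends in Trim71 (nt 8301–8400, in the 3′ UTR), against a median of 14 over its windows. In Lin28a 3 windows tied at 30 ends, one in coding sequence (nt 401–500) and the others in the 3′ UTR (nt 1701–1800 and 2201–2300), with a median of 11. The fullest window held 26 ends in Zbtb16 (nt 3701–3800, 3′ UTR; median 7) and 25 in Sall4 (nt 601–700, coding; median 4). Exon 4 of Trim71, which holds the last part of the coding sequence and the whole 3′ UTR, had 195 ends per kb and exon 1 had 80.9, while the 135 nt of exon 3 had 0 ends.

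The longest stretch without a sequence was 1109 nt in Id4 (nt 2104–3212, in the 3′ UTR), where none of the 27-nt words occurs in another gene. In Etv5 it was 923 nt (nt 409–1331), in Nanos2 828 nt, in Gfra1 481 nt at the 3′ end and in Sall4 299 nt at the 5′ end. In these 4 stretches 69.7% (Etv5), 91.5% (Nanos2), 86.4% (Gfra1) and 97.8% (Sall4) of the 27-nt words also occur in another gene, so that the rule could give few sequences there. With shared sequences kept, the longest such stretch was 735 nt in Etv5, 205 nt in Nanos2, 394 nt in Gfra1 and 280 nt in Sall4. Exon junctions were almost empty: 4 sequences crossed one, 2 in Lin28a and 2 in Zbtb16, each with 1 or 2 nt on the shorter side. The list gives each sequence 1 unbroken genome position, so a fragment that spans a junction by more than such a few bases could not appear in it.

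Fragments began at U more often than the transcripts offered it. Of the sense 5′ ends of the 10 genes, 58.5% (56.7–60.3%) began with T, and 25.3% of the transcript positions were T. The share was 63.0% over all protein-coding genes. Trim71 had 53.7% (51.2–56.2%), Nanos3 57.4%, Sall4 58.6%, Lin28a 59.4% (54.5–64.1%) and Zbtb16 64.3% (59.1–69.2%). It was 68.8% of the 16 ends of Id4, 69.2% of the 13 of Nanos2 and 73.3% of the 30 of Etv5. Gfra1 had 75.5% (67.6–82.3%) and Bcl6b 82.9% (72.0–90.8%), and their intervals lay above that of Trim71, as did that of Zbtb16. Without Trim71 the pooled share was 63.7%.

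Counted from the transcript's side, 16.5% of the T positions of the 10 genes were used as an end and 3.98% of the other positions were, a ratio of 4.15. Over all protein-coding genes the shares were 4.58% and 0.938%, a ratio of 4.89. In Trim71, 35.3% of T positions and 10.1% of other positions were ends, a ratio of 3.48. In Lin28a the shares were 25.8% and 6.65%, a ratio of 3.88. In Gfra1 they were 8.95% and 0.974% (9.19), and in Bcl6b 6.41% and 0.482% (13.3). The 2 genes with the most ends per kb thus had the lowest ratios. Each position counts once however many sequences begin there, so a low ratio need not mean a weaker preference for U. Why the ratios differed was not tested. Over the 6617 protein-coding genes with 50 or more ends the median ratio was 5.16, with a 5th to 95th percentile range of 2.84 to 10.9. Trim71 and Lin28a lay within that range, and Bcl6b lay above it.

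**Figure D3:**
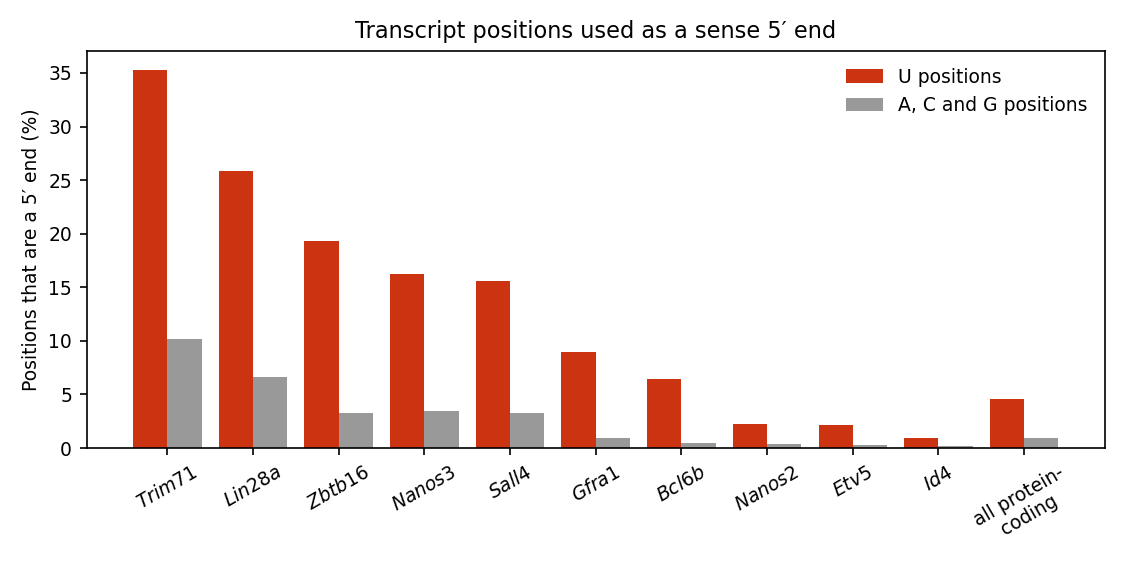
Share of transcript positions that are a sense 5′ end, for U (T) positions at left of each pair and for A, C and G positions at right, in each of the 10 genes and over all protein-coding genes. The U positions are the higher bar in every gene, from 35.3% against 10.1% in Trim71 down to 0.969% against 0.184% in Id4.

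The share of T also differed by how many distinct sequences began at an end, a rough measure of how often it was sampled. In the 10 genes, 49.4% (47.0–51.9%) of the 1621 ends with 1 sequence began with T, 65.3% (62.3–68.2%) of the 1017 ends with 2 or 3, and 83.2% (78.6–87.2%) of the 316 ends with 4 or more. In Trim71 the shares were 43.0%, 58.1% and 79.2%. In the other 9 genes they were 54.8%, 74.8% and 91.3%, and over all protein-coding genes 56.3%, 73.9% and 88.4%. Single-sequence ends made up 54.9% of the ends of the 10 genes and 74.2% of those of the whole list, and the fullest ends held 9 and 12 sequences. The whole list also includes sequences outside protein-coding genes. Over the sense ends of all protein-coding genes, 951599 of 1424407 held 1 sequence.

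The first base differed most from the positions around it. Elsewhere from 10 nt upstream to position 20, T reached at most 29.1%. G was least frequent at the first base (11.7%), 20.3% at the position just before it and 33.2% at position 2. Secondary piRNAs, made against a partner that begins with U, tend to carry A at position 10. Here 27.9% (26.3–29.6%) of the ends did, and positions 9, 11 and 12 had A in 27.7%, 27.4% and 28.7%. The base after the 3′ end was T in 25.2% (23.8–26.7%), and the mean over the 10 positions from there on was also 25.2%. A fragment began directly after the 3′ end of another in 559 cases, beside a mean of 565 at distances of 2 to 20 nt.

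**Figure D4:**
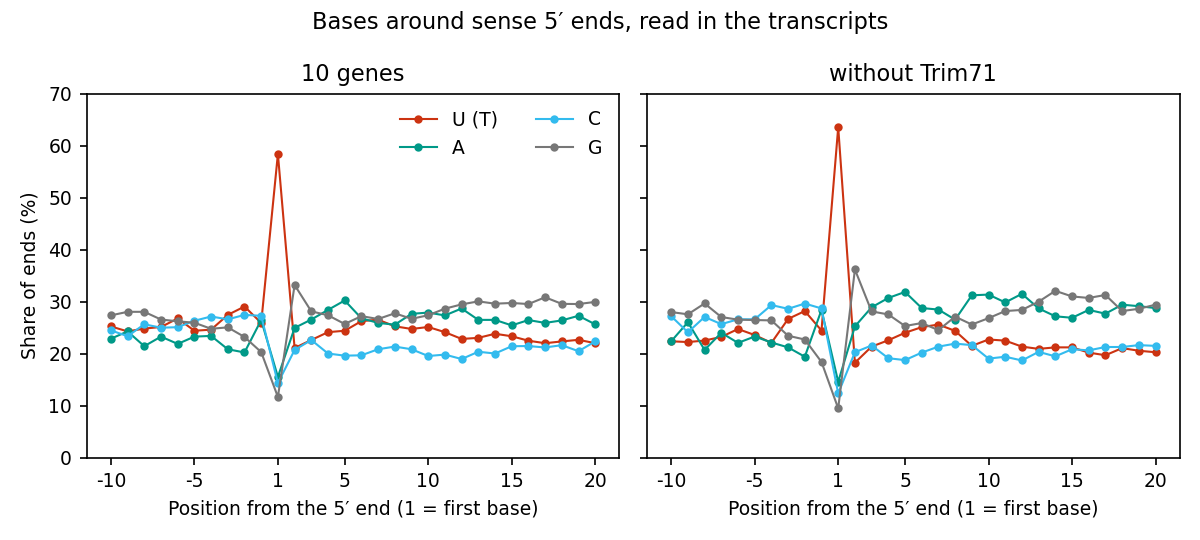
Share of each base at the 10 transcript positions before and the first 20 positions of the sense 5′ ends, for the 10 genes at left and without Trim71 at right. U reaches 58.4% at the first position in the 10 genes and 63.5% without Trim71, and A at position 10 lies among its neighbours in both.

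Opposite-strand partners with the 10-nt offset of the ping-pong cycle were few, and 12 of 15 lay in exon 1 of Trim71. Of 2954 sense ends, 15 (0.508%, 0.284–0.836%) had an antisense end at an overlap of 10 nt. Other overlaps from 1 to 20 nt had a mean of 11.9 (range 6–17), a ratio of 1.26, and 10 nt was not the highest: the count was 17 at 20 nt, 16 at 11 nt and 15 at 7 and at 8 nt. The 12 Trim71 ends lay between nt 230 and 1355 of the transcript, 10 of them in the 5′ UTR, and 5 of the 12 began with T. Lin28a had 2 such ends and Nanos2 had 1. Sense sequences shared with a gene on the opposite strand were left out, so their pairs were not counted. They numbered 26 in Trim71, 25 in Nanos2, 24 in Sall4, 23 in Gfra1 and 2 in Lin28a. The pair with the most sequences in Trim71 and in Lin28a and the single pair of Nanos2 are shown with the shared 10 nt in capitals.
Trim71 sense: TCTGATTCGAgcaagcccgggagggagact
Trim71 antisense: TCGAATCAGAggagtacgcgagggaccc
Lin28a sense: TGACCTTCAGacagcccctcttctccctc
Lin28a antisense: CTGAAGGTCActgtggtccagaatgg
Nanos2 sense: TCCAATATAGttgagtgtgttacgtcagt
Nanos2 antisense: CTATATTGGAtgggtagaagagagaga
The Trim71 pair lay on chromosome 9 (mm9) at 114473135 to 114473164 on the minus strand and 114473155 to 114473182 on the plus strand, with 5 and 4 sequences at its ends. The Lin28a pair lay on chromosome 4 at 133560035 to 133560063 (minus) and 133560054 to 133560079 (plus), with 3 and 1. The Nanos2 pair lay on chromosome 7 at 19574106 to 19574134 (plus) and 19574089 to 19574115 (minus), with 1 and 2.

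Trim71 and Lin28a are linked by let-7, which LIN28A holds back and which represses both messenger RNAs, so the let-7 seed matches of the 10 transcripts were located among the fragments. The seed, bases 2 to 8, is in capitals in the mature sequence of RefSeq (GRCm38.p6), and 9 mouse let-7 names share it.
mmu-let-7a-5p: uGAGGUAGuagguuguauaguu
The motif searched, on the transcript strand alone, was CTACCTC, its reverse complement. It occurred in the 3′ UTR of 4 of the 10 genes, against 8.04% of 20738 protein-coding genes. The 3′ UTRs of the 10 genes summed to 23881 nt, and those of all protein-coding genes to 27490133 nt. Longer 3′ UTRs offer more places for a match, and this comparison was not adjusted for length. The motif occurred 4 times in the 3′ UTR of Trim71, 2 times in that of Lin28a and 1 time each in those of Zbtb16 and Sall4. Sall4 had 3 more matches in coding sequence, and Trim71 and Bcl6b 1 each.

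A pair of neighbouring Trim71 matches lay in a densely covered stretch of its 3′ UTR. The match at nt 7411–7417 was held whole by 16 sequences and that at nt 7437–7443 by 41, with 36 and 42 ends within 50 nt. The median over all positions of that 3′ UTR was 20 ends, and these counts exceeded those at 85.5% and 93.9% of positions. The other 2 matches in this 3′ UTR, at nt 3986 and 4082, were held by 0 and 1 sequences, with 4 and 6 ends near them. In Lin28a the match at nt 2277–2283 was held by 2 sequences with 23 ends near it (median 13), and the match at nt 1639 by 0. The matches in the 3′ UTRs of Zbtb16 and Sall4 were held by 0 sequences. In the coding sequence of Sall4 the matches at nt 1055 and 1646 were held by 6 and 2 sequences. The fragments over the best covered 3′ UTR matches of Trim71 and Lin28a are shown with the seed match in capitals.
Trim71, nt 7411: tagtatggattttCTACCTCaattttggca
Trim71, nt 7437: ttggcaaaaagttgtCTACCTCacgtcggc
Lin28a, nt 2277: tgctttgagatcgccacaaacCTACCTC
They lay on the minus strand at 114418156 to 114418185 and 114418132 to 114418161 of chromosome 9 and 133560467 to 133560494 of chromosome 4 (mm9). These matches are a description of where the fragments fell and do not show binding by let-7.

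Same-strand sequences that matched no transcript were less dense between the exons than the genes' own sense ends were on the transcripts. Outside the exons but within the stretch that each gene's sequences spanned, same-strand ends numbered 11.1 per kb in Trim71, 9.98 in Lin28a, 9.30 in Nanos3 and 7.05 in Sall4. These values stand beside 164 (Trim71), 120.1 (Lin28a), 64.4 (Nanos3) and 62.9 (Sall4) ends per kb of transcript. They also lie above the median of 5.18 ends per kb of transcript over all protein-coding genes, and no background between exons was computed for other genes. Zbtb16, with a span of 181908 nt, had 615 such sequences but 2.99 ends per kb, beside 70.6 per kb of transcript. Gfra1 had 0.921 per kb and Etv5 0.428. The span of Nanos3 also held 374 sequences on the opposite strand without a transcript match, at 86701079 to 86708867 of chromosome 8, and 0 of them fell within the stretch of the main Nanos3 transcript (86697670 to 86700429).

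The partners of these genes were read beside them, from lists chosen with earlier results of these data known. The median was 46.8 ends per kb for the 10 genes and 21.6 for 12 other genes of undifferentiated spermatogonia, with 10 of the 12 at 10 or more sense sequences. Without Trim71 the median of the remaining 9 genes was 30.8. Neurog3, a factor of progenitors about to differentiate, had 57.1, Sox3 48.9 and Upp1 47.8. In GDNF and FGF signalling 20 of 21 genes reached 10 sequences (median 17.2), among them the adaptor gene Frs2 with 52.5. Gfra1 had 30.8, and Ret, the receptor that GFRA1 serves, had 17.2.

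In the let-7 and LIN28 pathway 15 of 16 genes reached 10 sequences (median 37.04 ends per kb). Igf2bp1, an RNA-binding protein and let-7 target, had 129, Ago1 113 and Lin28b, the paralogue of Lin28a, 101, whereas Hmga2, another let-7 target, had 0. All 14 genes of NANOS partners and deadenylation reached 10 (median 24.03), led by Cnot9 (77.4) and Nanos1 (69.8). All 14 genes listed as corepressors or other partners of PLZF and SALL4 did as well (median 19.9), led by Mta2 (37.3), Cul3 (30.2) and Chd4 (28.4). These counts stand beside the 55% of all protein-coding genes with 10 or more sequences.

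For the next stage, differentiating spermatogonia, 9 of 9 markers reached 10 sequences (median 33.3), led by Ccnd2 (109), Stra8 (74.3) and Sohlh1 (67.5). Somatic cells of the testis were lower. Sertoli cell markers had 4 of 14 genes at 10 or more and a median of 1.75, led by Gdnf (14.2), Ctsl (12.2) and Sox9 (4.84), with Rhox5, Inhba and Fshr at 0. Leydig cell markers had 1 of 7, Star with 40.8, while Cyp17a1, Hsd3b1, Hsd3b6, Insl3 and Lhcgr were at 0. A count of 0 distinct sequences does not show that the RNA was absent, because depth is unknown.

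**Figure D5:**
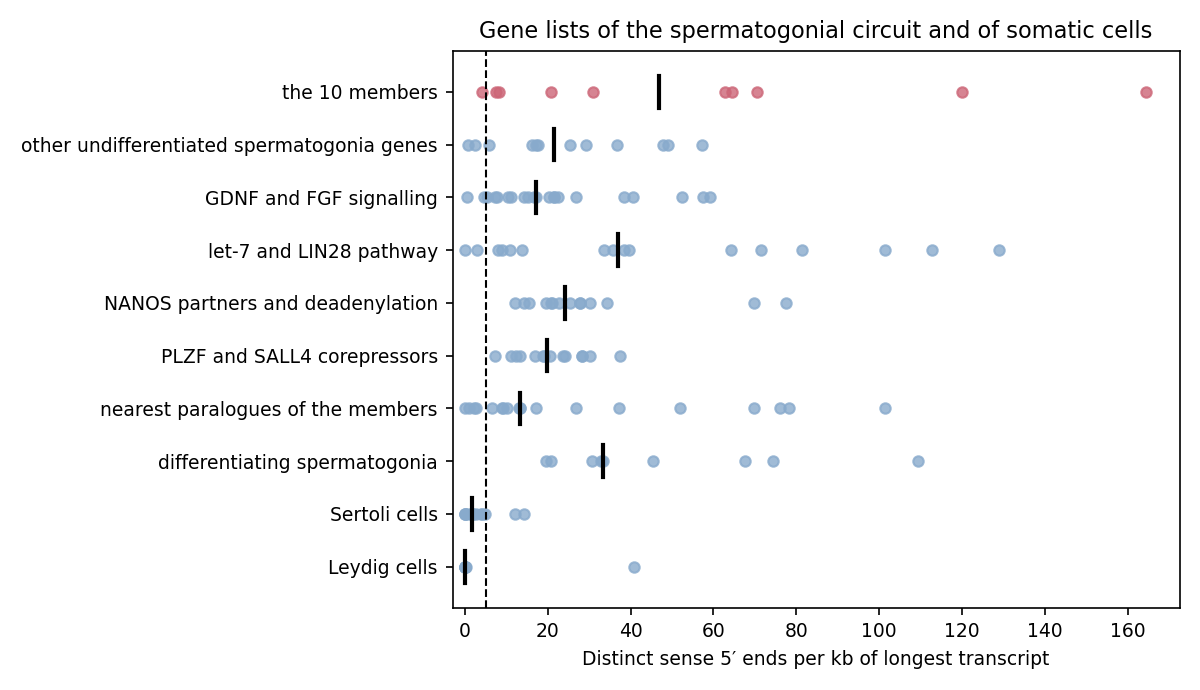
Density of distinct sense 5′ ends per kb, with each gene as a point, of the 10 spermatogonial genes (top row) and of 9 further lists; black ticks are medians and the dashed line is the median of all protein-coding genes (5.18). The 10 genes spread from 4.16 to 164 around a median of 46.8, and most Sertoli and Leydig cell markers lie at or below the dashed line.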

How the data were processed

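Small RNAs bound to MILI were sequenced by the study from 2 Tdrd9-/- and 2 Tdrd9+/- testis samples at 14 dpp. Per the labels' protocols, RNAs of about 28 to 30 nt were gel-eluted and made into libraries with an Illumina kit. Positions refer to mm9, as named in the submitters' processing notes. For the aligner and read filters, nothing is stated in the labels. Per the file headers, the deposited list has columns for the sequence, its chromosome, both positions and the strand. It holds the first and last position of each sequence, both included, and no counts. The planned genotype comparison by a count model was therefore not run, and all values are descriptions without p-values.

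Whole sequences were matched exactly, in both orientations, to the 141767 transcripts of GENCODE M21. That annotation is built on GRCm38, and only its sequences, coding limits and names were used. Every coordinate of a fragment is mm9 as listed, and that of let-7 was not used. Densities use the longest transcript, and regions, coverage and bases use the transcript with the longest coding sequence. Intervals are exact (Clopper-Pearson for shares, Poisson for densities, conditional binomial for ratios) and cover counting error only. Tested on simulated data, the matching recovered 500 of 500 planted sequences. The genes and lists were chosen with earlier results of these data known. From each further list the 3 densest genes and those at 0 (up to 5) are named, except a few that are not reported here; Ret and Gdnf are partners of Gfra1, and they, the paralogues named outside this rule and the let-7 positions were picked with their values in view. Alternatives covered sequence length, shared sequences, the unit counted, the transcript and leaving out Trim71. Python 3.11.15, numpy 2.4.6, scipy 1.17.1, numba 0.67.0 and matplotlib 3.10.9 were used.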

Additional observations from a re-analysis of the deposited data

How the results depend on the processing

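Of 27 alternatives of the pooled values, 17 stayed within the interval or within 1.5 times the value reported, and so did 10 of 10 alternatives of single genes with only the transcript with the longest coding sequence. Restricting the list to 24 to 31 nt or changing the transcript moved none outside. Keeping sequences shared with another gene gave a sense share of 97.2% and, as an alternative chosen after seeing the data, a coverage of 49.8%. It also moved Nanos2 by over 1.5 times, to 19.8 ends per kb, against 8.32. Counting distinct ends gave a sense share of 97.1%, and counting sequences gave a first-base T share of 66.2%. Leaving out Trim71 gave 2378 sense sequences, a T share of 63.7%, an A share at position 10 of 31.3%, a ratio of 3′ UTR to coding sequence of 0.992, a median of 30.8 ends per kb and a coverage of 38.9%.

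No paired analysis was possible because the pooled list carries no library or replicate labels. Replicates could not be left out for the same reason. Abundant and rare fragments count alike, so the list does not rank fragments by abundance, and low counts, as in Id4, Nanos2 and Etv5, give wide intervals.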

Other observations

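Close paralogues of the 10 genes differed from them in both directions. Of 19 paralogues, 17 had 10 or more sense sequences, with a median of 13.2 ends per kb, led by Lin28b (101), Sall1 (78.3) and Zbtb32 (76.1), and Etv1 was at 0. Id4 had 4.16 ends per kb, while Id1, Id2 and Id3 had 17.2, 13.2 and 10.2. Gfra1 had 30.8, while Gfra2 had 0.864, Gfra3 9.01 and Gfra4 26.8. Sall4 had 62.9, while Sall1 had 78.3, Sall3 13.3 and Sall2 2.14. Bcl6b had 20.8 and Bcl6 6.61, and Etv5 had 7.55 and Etv4 9.19. Intervals were not computed for the paralogues, and no test of these differences was made.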
